A study of Homo sapiens with 26 samples.

Results

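Olfactory receptor gene clusters were examined in single human cells profiled with the DNA adenine methyltransferase Dam. Their members were the 100 kb bins inside 7 intervals of the hg19 genome known to hold such clusters: chr1:247600001-248900000, chr7:143100001-144100000, chr11:4400001-5200000, chr11:5400001-6300000, chr11:55000001-56700000, chr11:123600001-124500000 and chr14:20200001-20800000. The intervals cover 7.2 Mb and hold 72 bins, all with a value, of 26584 bins with a value in the whole table. The intervals on chromosome 11 are called the first to the fourth in order of position. The rule names positions and no measured value, although it was set with earlier results of these data known.

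In DamID, Dam marks adenine in the sequence GATC wherever it reaches the DNA, and fragments cut at methylated sites are amplified and sequenced. The data were 26 single cells of KBM7, a human myeloid leukaemia line with a nearly haploid genome. All were of clone 5-8, haploid (1N) and labelled DamOnly, read here as Dam without a fused targeting protein. Dam had been stabilised with 0.5 nM Shield1 for 15 h, and sorting took cells that carried both Fucci cell cycle markers and were among the smallest 2% by scatter. The title of the series mentions LaminB1, a nuclear lamina protein, but the sample labels give DamOnly throughout, and they were taken as the guide. The 26 cells are fewer than the 124 of the design text. Because they are 1 group from 1 clone, regions were compared inside each cell, an SD describes how cells of the clone vary, and p-values are not given.

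Olfactory receptors are G protein-coupled receptors that bind odorants in the sensory neurons of the nose. Their genes are short, their coding sequence mostly lies in a single exon, and they are arranged in long arrays without many genes of other families. A mature olfactory neuron expresses essentially a single receptor allele and keeps the others silent in heterochromatin, and blood cells are not a tissue in which the family as a whole is known to be active.

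The gene content of the intervals was read from the order of protein-coding genes in RefSeq (GRCh38.p14), because no annotation of hg19 was used here. Runs of receptor genes were matched to the intervals from textbook knowledge, and a run may extend past its interval. The chromosome 1 run goes from OR2B11 to OR14I1, with 43 receptor genes between NLRP3, an inflammasome sensor, and LYPD8. On chromosome 7, 11 genes run from OR2F2 to OR2A1 between TCAF1 and ARHGEF5. The first chromosome 11 run, OR52B4 to OR51V1, has 26 genes and ends beside HBB, the adult beta-globin gene. The second interval begins on the other side of the globin genes, after HBE1, the embryonic globin gene. It holds 2 runs, OR51B4 to OR52B6 with 11 genes and OR52N4 to OR52W1 with 18, and between them lie TRIM5 and TRIM22, antiviral ubiquitin ligases. The third run, OR4C13 to OR5AK2, has 50 genes and is followed by LRRC55. It spans the centromere, so that part of it lies outside the interval. The fourth, OR6X1 to OR8A1, has 22 genes between ZNF202 and PANX3, a pannexin channel gene. On chromosome 14 a run of 17 genes ends at OR11H4, before TTC5. Other protein-coding genes also lie within every run except OR52N4 to OR52W1, for example GCSAML and TRIM58 on chromosome 1.

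Sequence around annotated gene starts was read at the boundary between the family and its neighbours, for the bases Dam can mark. The last receptor gene and the next protein-coding gene were taken for the chromosome 14 run and the third chromosome 11 run. Both genes lie at the high-coordinate end of their run. Beyond both intervals on that side the Dam signal rises, but the genes were not placed in the hg19 bins. Their positions below are of another build, so they do not show where the genes lie against that rise. Each sequence runs 5′ to 3′ on the strand of the gene, from 250 bases before to 50 bases after its start (RefSeq, GRCh38.p14), and capitals mark GATC, which reads the same on both strands. They are OR11H4 at chr14:20239036-20239335 (plus strand), TTC5 at chr14:20305902-20306201 (minus strand), OR5AK2 at chr11:56988664-56988963 (plus strand) and LRRC55 at chr11:57181703-57182002 (plus strand).
OR11H4: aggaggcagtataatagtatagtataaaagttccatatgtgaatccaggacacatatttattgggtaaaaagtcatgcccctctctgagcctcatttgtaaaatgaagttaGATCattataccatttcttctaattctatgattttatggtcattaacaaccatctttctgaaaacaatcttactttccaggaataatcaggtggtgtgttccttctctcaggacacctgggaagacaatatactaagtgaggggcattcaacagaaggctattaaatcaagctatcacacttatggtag
TTC5: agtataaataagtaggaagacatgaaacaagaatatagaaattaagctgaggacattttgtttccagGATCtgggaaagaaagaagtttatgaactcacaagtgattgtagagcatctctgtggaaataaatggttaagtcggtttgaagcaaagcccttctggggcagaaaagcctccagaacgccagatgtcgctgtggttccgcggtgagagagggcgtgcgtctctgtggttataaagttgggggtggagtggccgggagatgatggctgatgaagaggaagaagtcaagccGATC
OR5AK2: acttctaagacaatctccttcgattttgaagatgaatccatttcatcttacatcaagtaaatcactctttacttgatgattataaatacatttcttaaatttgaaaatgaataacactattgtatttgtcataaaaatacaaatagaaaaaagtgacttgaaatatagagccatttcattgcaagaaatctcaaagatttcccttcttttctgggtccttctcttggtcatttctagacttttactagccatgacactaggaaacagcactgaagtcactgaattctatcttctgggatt
LRRC55: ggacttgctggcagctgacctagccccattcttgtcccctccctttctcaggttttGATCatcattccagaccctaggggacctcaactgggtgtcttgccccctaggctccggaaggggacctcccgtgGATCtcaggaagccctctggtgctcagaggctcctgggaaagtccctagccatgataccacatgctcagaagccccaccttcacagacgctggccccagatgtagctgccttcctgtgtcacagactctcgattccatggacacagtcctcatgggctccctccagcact

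Around their annotated starts, the receptor genes are poorer in G and C than their neighbours. OR11H4 has 36.0% GC, no CpG and 1 GATC, and TTC5 45.7% GC, 9 CpG and 2 GATC. OR5AK2 has 31.0% GC, 1 CpG and no GATC, and LRRC55 58.3% GC, 4 CpG and 2 GATC. Of the 198 receptor genes in the runs, 163 matched an entry of the promoter table. Their median GC content was 37.0%, against 62.3% over all 22199 protein-coding promoters, and their median number of CpG was 1, against 21. GATC did not separate the sets: 67 of the 163 windows held it (41.1%), against 40.0% of protein-coding promoters and 41.7% of all 35116 promoters of the table. The windows rest on the annotated start of each gene. In OR5AK2 the 50 bases after that start open with atg, the triplet that starts a protein, so this window may not hold its promoter. How many receptor windows are like it was not counted, so the sets may differ in where their windows lie. The windows cover a small part of each cluster, and GATC density over whole bins was not analysed here.

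The Dam values are linear ratios of observed over expected signal. A level here is the mean ratio of a region divided by the mean of the same cell over all bins, so that 1 is the cell average. Whole counts behind the ratios, taken as the smallest whole numbers that keep their steps, totalled between 20182 and 178941 per cell. Where the counts of a bin share a factor, as with signal in only 1 cell, its counts and expectation may be too low. The 72 cluster bins held 15 counts in cell 22, 297 in cell 1 and a median of 65.5 per cell, so single clusters in single cells are coarse. In 2 bins, both on chromosome 7, every cell was at 0. Of the 72 bins, 9 (12.5%) had an expectation under 0.5 times the median bin or were 0 in all cells, against 4.36% of all bins. Cell 22 stands apart: across all bins its mean Spearman correlation with the other cells was 0.0584, where the next lowest, cell 21, had 0.198 and the highest, cell 1, 0.374.

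Taken as a whole, the olfactory receptor clusters were marked less than the average of the genome, less than the DNA beside them and less than the rest of their chromosomes, in every cell at full depth. The combined level of the clusters ran from 0.354 in cell 22 through a median of 0.620 to 0.862 in cell 23, with a mean of 0.612 ± 0.127 (SD, n = 26 cells). The flanks, 1 Mb on both sides without bins of another cluster (107 bins in all), averaged 1.33 ± 0.231, from 0.773 in cell 22 to 1.87 in cell 10. They were at the cell average or above it in 25 cells. The rest of the same chromosomes averaged 0.994 ± 0.0881.

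Within cells, the level of the clusters differed from that of their flanks by -0.717 ± 0.232, from -1.26 in cell 8 to -0.365 in cell 21. Their difference from the rest of the chromosomes was -0.382 ± 0.143, from -0.613 in cell 8 to -0.0376 in cell 23. Both were below 0 in 26 of 26 cells, and without cell 22 they were -0.729 ± 0.229 and -0.378 ± 0.144. With every cell thinned to 20000 counts the clusters were below the flanks in 26 cells, below the rest in 23 and below the cell average in 24. With the clusters weighted equally, or without the third chromosome 11 cluster, they were below the rest in 25 cells. The flanks themselves stood above the rest of the chromosomes by 0.336 ± 0.188, in 25 of 26 cells, so part of the step at the cluster edge comes from a raised level outside. Added over cells, 2279 counts gave the clusters a level of 0.640 (exact 95% Poisson interval 0.614 to 0.667), against 1.40 (1.37 to 1.43) in the flanks. The ratio of clusters to flanks was 0.457 (0.436 to 0.479) and that of clusters to the rest 0.625 (0.599 to 0.651). Intervals cover counting error only, and the sources used here do not say how PCR copies of a fragment were handled.

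**Figure D1:**
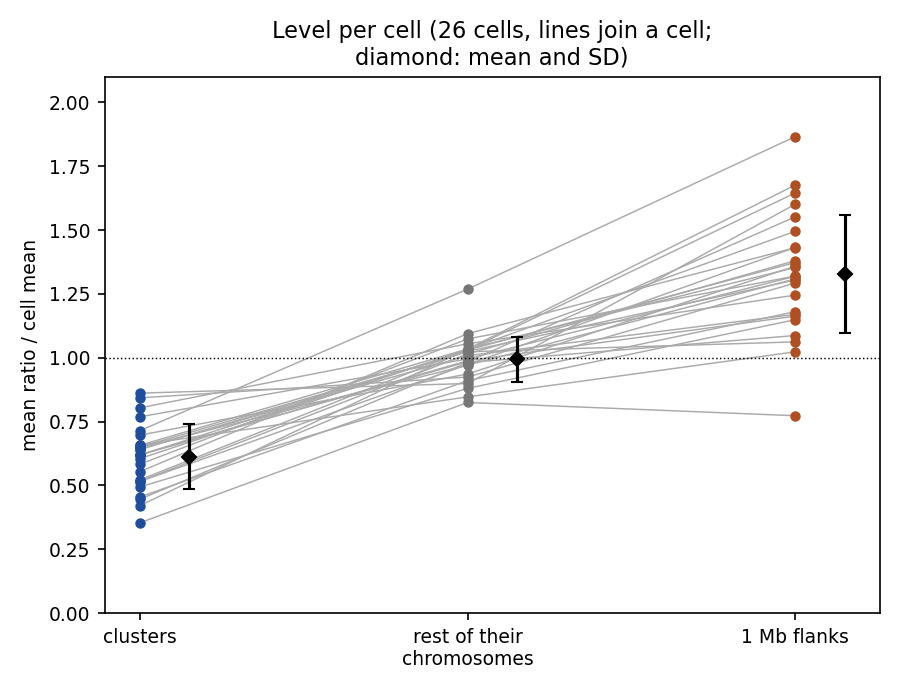
Level relative to the cell mean (y axis, dimensionless) in each of the 26 cells for the 7 olfactory receptor clusters combined, their 1 Mb flanks and the rest of their chromosomes; thin lines join values of the same cell, and diamonds with bars give the mean and SD. Every cell is lower in the clusters than in the flanks, and the clusters lie between 0.354 and 0.862.

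A 1 Mb stretch lower than its flanks is common in this genome, so each cluster was read against all 1 Mb windows. To be called lower or higher, a region had to be so in 21 or more of the 26 cells (80%). All 7 clusters were lower than their flanks, and 22.0% of 2663 windows across the genome were. Lower than the rest of their chromosome were 4 of 7 clusters, against 40.1% of windows, a share near enough to the background that the count says little about these clusters. Each of the other 3 became a call under at least 1 alternative. The size of the step to the flanks was less usual for some. A difference as low as that of the chromosome 14 cluster was seen in 0.376% of windows, as low as that of the first chromosome 11 cluster in 0.751% and as low as that of the third in 0.826%. For the second cluster it was 20.6% and for chromosome 7 16.5%. These shares hold for uncapped ratios and 1 Mb flanks, and the differences of the single clusters change in size with both choices. For chromosome 14, capping at the 99th percentile moved the difference from -1.18 to -0.579, and a log2 scale ended its call, so its share is not secure. The clusters are between 0.6 and 1.7 Mb long, so window and cluster lengths are not the same.

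**Figure D2:**
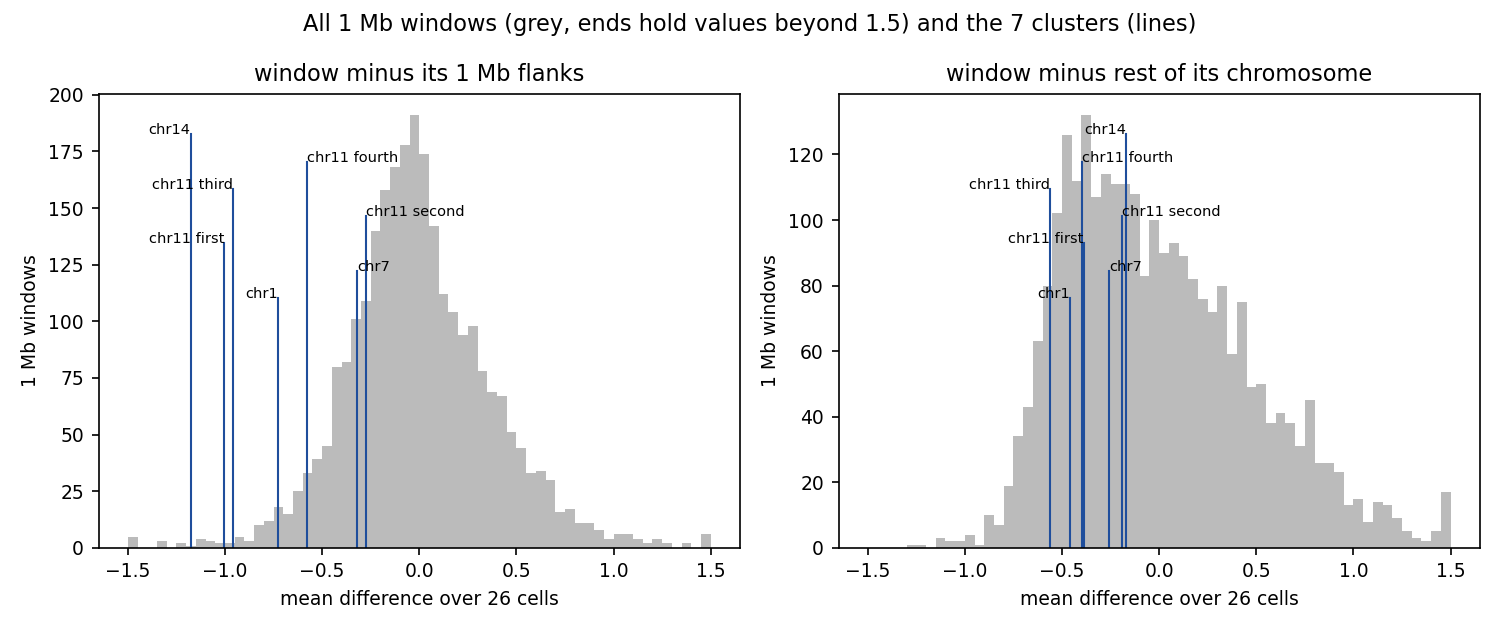
Numbers of 1 Mb windows of the genome (y axis) by their mean difference in level over 26 cells (x axis) from their 1 Mb flanks (left) and from the rest of their chromosome (right), in grey, with the 7 olfactory receptor clusters as lines of no meaningful height; the end bars hold values beyond the axis. Differences of the clusters from their flanks lie between -1.18 and -0.272, several of them in the low tail of the windows, and those from the rest of the chromosome, between -0.562 and -0.171, lie among the bulk of the windows.

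The clusters differed in how low they were. The third chromosome 11 cluster, the longest interval, was lowest. Its level was 0 in cell 22, 0.396 at the median and 1.07 in cell 10, with a mean of 0.404 ± 0.222. It differed from its flanks by -0.957 ± 0.391 and from the rest of chromosome 11 by -0.562 ± 0.202, and was lower in 26 cells in both comparisons. Without cell 22 its difference from the flanks was -0.979 ± 0.382. The fourth, near the long arm end, was at 0.567 ± 0.271 and the first at 0.577 ± 0.276. Chromosome 7 was at 0.658 ± 0.489, chromosome 1 at 0.700 ± 0.400, the second chromosome 11 cluster at 0.774 ± 0.272 and chromosome 14 at 0.807 ± 0.527. Neighbours in this order were not separated by 21 cells. The third cluster was lower than the second in 24 cells and than chromosome 14 in 22, and the fourth was lower than the second in 23. No other pair was placed in either order.

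**Figure D3:**
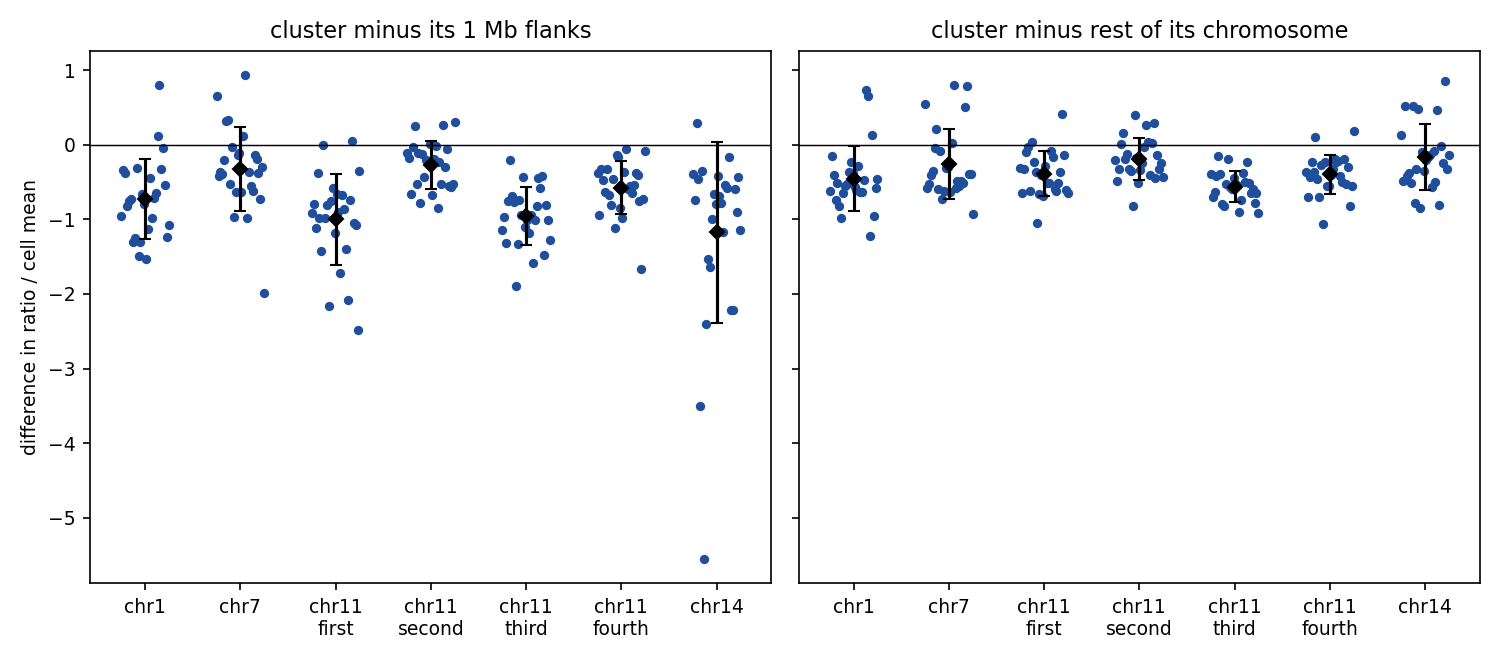
Difference in level (y axis, in units of the cell mean) of each olfactory receptor cluster from its 1 Mb flanks (left) and from the rest of its chromosome (right) in each of the 26 cells (points), with mean and SD (diamonds and bars). All cells of the third chromosome 11 cluster lie below 0 in both panels, and the widest spread is that of chromosome 14 against its flanks, with an SD of 1.21 and a lowest cell at -5.55.

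The contrast with the flanks mostly came from 1 side of each cluster, and the profile of each tells which. The fourth chromosome 11 cluster was the exception, with a dip between neighbours near the average. Its 9 bins lay between 0.133 and 0.792, its left flank averaged 1.22 ± 0.367 and its right flank 1.07 ± 0.310. It was lower than the left flank in 25 cells and than the right in 23. The bin at 123800001 to 123900000 was the lowest cluster bin with any signal, at 0.133 ± 0.231 from 9 counts. That bin reached a ratio of 1 in no cell. Against both flanks together the difference of the cluster was -0.579 ± 0.355 in 26 cells, and against the rest of the chromosome -0.399 ± 0.263 in 24. Among the 7 clusters, only this cluster was lower than each side separately in at least 21 cells. Of 2576 windows, 4.89% were. The right side of the chromosome 1 cluster had only 4 bins, however. In the remaining chromosome 11 clusters, 1 side had only 2 or 3 bins. For the clusters beside the globin genes, that side was the gap between them. With sides this short, the count over the 7 clusters is not comparable with the share of windows.

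The third cluster was flat and low throughout. All 17 bins averaged below 1, from 0.225 ± 0.512 at 56000001 to 56100000 to 0.790 ± 1.12 at 55200001 to 55300000. On its centromeric side only 3 bins had a value, at 0.309 ± 0.521, and 18 of 26 cells had no signal there. The bin at 54700001 was 0 in every cell. Those at 54800001 and 54900001 had 18.7% and 15.5% of the median expectation, with 4 and 7 counts. That side was too thinly measured to show whether its level is low. On the other side the low signal went on past the interval, with 0.585 and 0.361 in the next bins, 1.06 and 0.933 after them, and then 2.35, 2.88 and 3.05 from 57100001 onward. The rise therefore lay 0.4 Mb beyond the interval. With flanks of 0.5 Mb in place of 1 Mb the difference was -0.374 ± 0.414 and lower in 20 cells, so the call was lost.

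The first and second chromosome 11 clusters lie on both sides of the beta-globin genes. The first fell toward them: its bins stood at 0.847, 0.708, 0.832 and 0.785 and then, from 4800001, at 0.346, 0.349, 0.506 and 0.245. Its left flank was high, at 1.77 ± 0.678, with a peak of 4.47 at 3800001 to 3900000. The cluster differed from both flanks together by -1.002 ± 0.606, lower in 25 cells, and by -0.580 ± 0.451, again lower in 25 cells, with flanks of 0.5 Mb. From the rest of the chromosome it differed by -0.388 ± 0.301, lower in 24. On a log2 scale the last count was 20 cells, which ends that call. The gap between the clusters, 2 bins at 5200001 to 5400000, was at 0.618 ± 0.502. Compared with the mean of the clusters beside it the gap differed by -0.0637 ± 0.462 and was higher in 11 cells, so no step was detectable there at this depth.

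The second cluster was the least uniform on chromosome 11. Of its 9 bins 7 lay between 0.333 and 0.928, but that at 5600001 to 5700000 reached 1.52, and the last, at 6200001 to 6300000, 1.63 ± 1.24, with a ratio of 1 or more in 16 cells. Which genes lie in these bins was not determined. It differed from its flanks by -0.272 ± 0.318, lower in 22 cells, with the right flank at 1.13 ± 0.454. With flanks of 0.5 Mb the difference was -0.473 (23 cells) and with flanks of 2 Mb -0.521 (25 cells), whereas on a log2 scale 20 cells were below, which ends the call. Its difference to the rest of the chromosome, -0.192 ± 0.279, was negative in 19 cells and placed on neither side. Without the edge bins it was -0.298 and negative in 23 cells, which makes it a call.

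The chromosome 1 cluster had a higher and a lower stretch. The first 5 bins stood at 1.19, 1.61, 0.589, 0.614 and 1.23, and the 8 bins from 248100001 lay between 0.207 and 0.728. The bin at 247700001 to 247800000, the second from the left edge, averaged 1.61 ± 1.21 and reached 1 in 17 cells, the most of any cluster bin. The bin at 248100001 to 248200000 averaged 0.207 ± 0.328 and reached 1 in none. The left flank was at 1.59 ± 0.469. The right flank, 4 bins up to the chromosome end, was at 1.00 ± 0.966, and the cluster was below it in 14 cells. Its bins at 248900001, 249000001 and 249200001 had only 6.96%, 30.1% and 13.3% of the median expectation. The remaining bin, at 249100001 to 249200000, averaged 1.69 ± 1.47. Against both flanks together the difference of the cluster was -0.726 ± 0.533 in 24 cells, and against the rest of the chromosome -0.457 ± 0.433 in 23.

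The chromosome 14 cluster differed from its flanks by -1.18 ± 1.21, lower in 25 cells, with a median over cells of -0.766. The right flank was at 2.16 ± 0.727, and the cluster was below it in 25 cells. The last cluster bin stood at 0.803, and the next bins outside at 2.29 and 4.38. On the left, 8 bins of mostly very low expectation averaged 1.77 ± 3.12, with 13.9 in cell 7, and the cluster was below that side in 10 cells. The size of the difference moved widely: it was -0.579 ± 0.526 with ratios capped at the 99th percentile, -0.766 ± 0.724 with flanks of 2 Mb and -2.0003 ± 2.52 with flanks of 0.5 Mb. Without bins of low expectation in clusters and surroundings the difference was -1.44 ± 0.747. On a log2 scale it was -0.47 and lower in 17 cells, which ends the call. With 6 bins and 194 counts this was the thinnest of the clusters, and its difference to the rest of the chromosome, -0.171 ± 0.441, was negative in 20 cells. Without bins of low expectation it was -0.250 in 22 cells, and without the 6 cells of lowest coverage -0.209 in 16 of 20, both enough for a call.

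The chromosome 7 cluster was the least secure. It differed from its flanks by -0.321 ± 0.564 and was lower in 21 cells, the smallest number that counts, and lost that side in 6 of 11 alternatives. The difference was -0.126 with flanks of 2 Mb, -0.155 without the bins at 0 in all cells and -0.203 without the 6 cells of lowest coverage. Only the left flank was higher, at 1.36 ± 0.834, whereas the right flank was itself low, at 0.598 ± 0.528. Much of this interval was thinly measured. Its bins at 143300001 and 143900001 were 0 in every cell. Those at 143200001, 143400001, 143500001 and 144000001 had 28.5%, 8.23%, 33.9% and 32.3% of the median expectation. The bin at 143500001 to 143600000 averaged 2.098 ± 3.56. Without bins of low expectation in clusters and surroundings the difference from the flanks was -0.340 ± 0.603, lower in 22 cells. Against the rest of the chromosome the difference was -0.257 ± 0.468 and negative in 20 cells. That comparison became a call in 6 of 9 alternatives, for example at -0.272 in 21 cells without bins of low expectation.

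**Figure D4:**
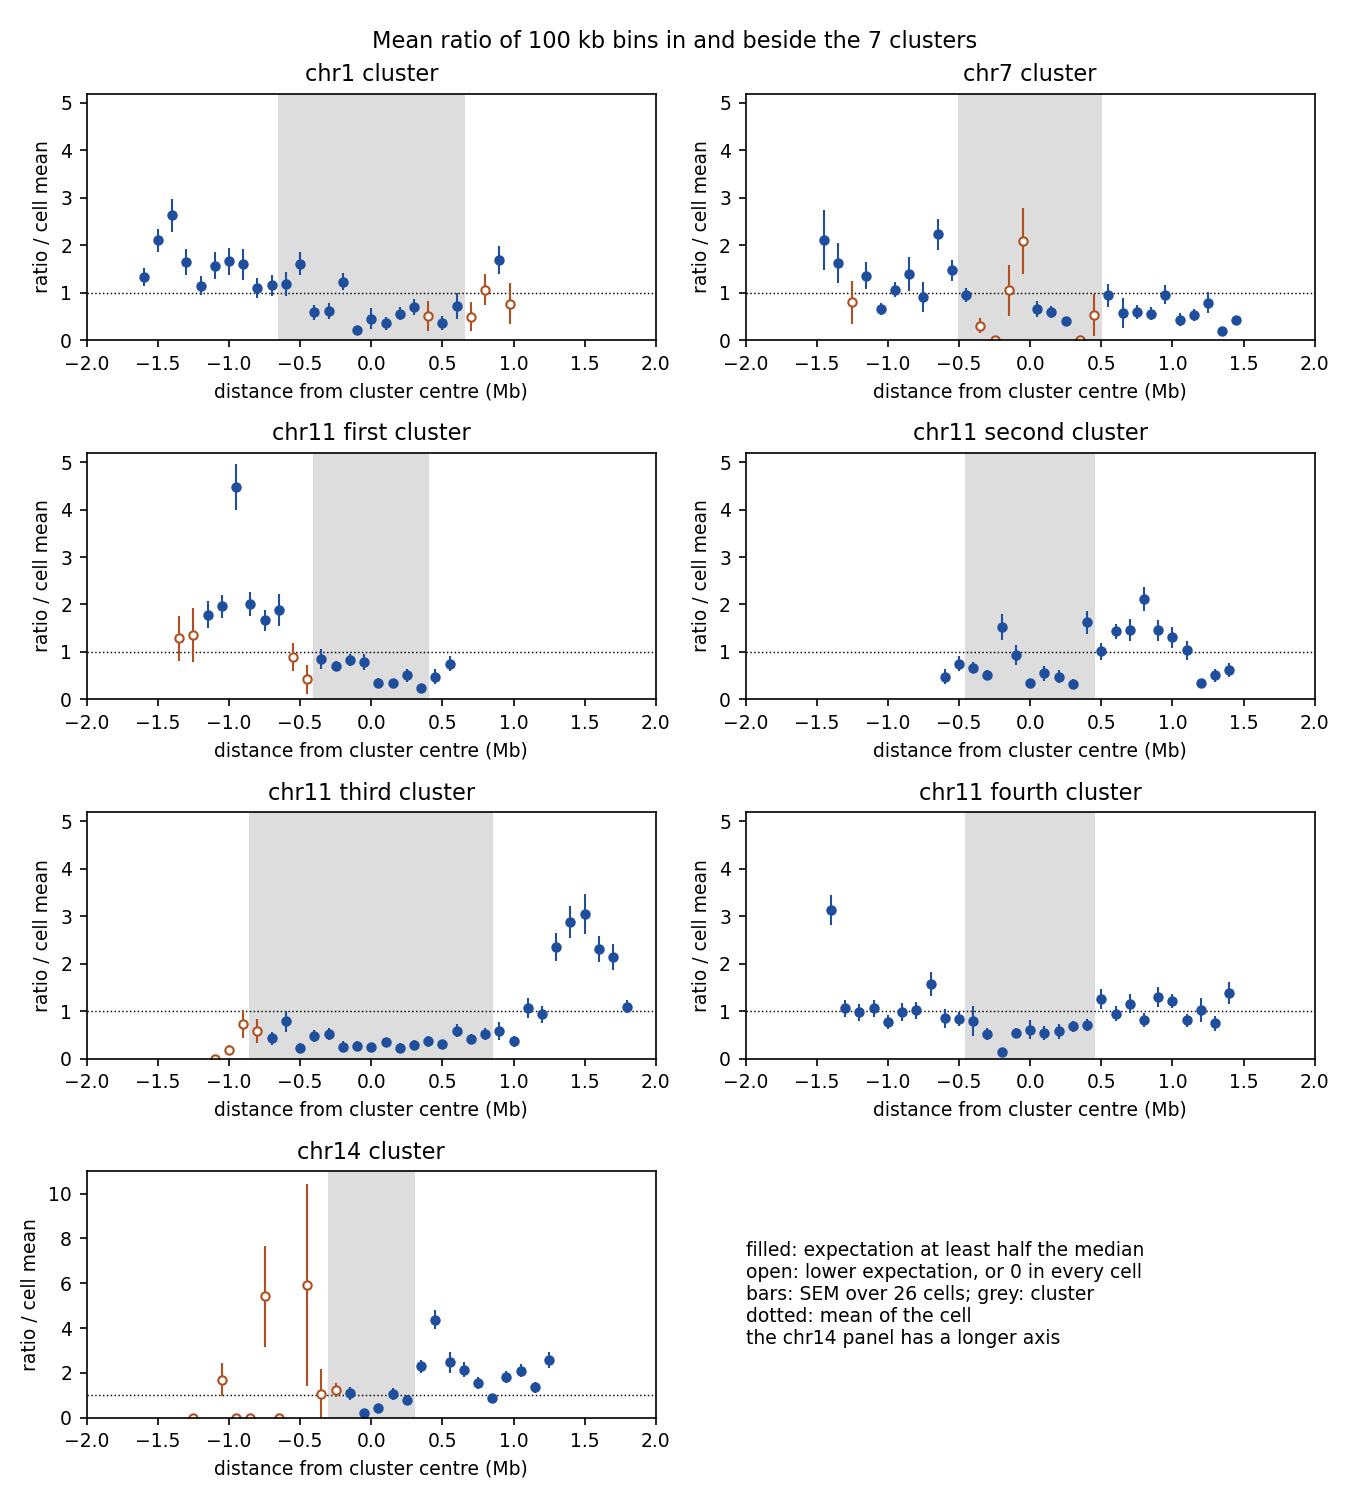
Mean level relative to the cell mean of every 100 kb bin (y axis) by distance from the centre of the cluster in Mb (x axis), 1 panel for each olfactory receptor cluster (grey) with 1 Mb on both sides; error bars are the SEM over 26 cells, the dotted line marks the cell mean, and open points are bins of low expectation or at 0 in all cells. All cells are of 1 clone, so the SEM describes these cells only and not repeated cultures. The chromosome 14 panel has a longer axis, and its left flank rests on bins of low expectation. The third chromosome 11 cluster stays below 1 in all 17 bins, and the fourth dips between flanks near 1.

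How often single cells had signal in the clusters was counted next. Ratios of at least 1 are called positive. The share of cluster bins positive in a cell ran from 8.33% to 33.3%, with a mean of 21.7% ± 5.05, against 44.2% ± 7.25 in the flanks, 36.5% ± 3.51 in the rest of the chromosomes and 35.7% ± 2.58 over all bins. No cluster bin was positive in at least 80% of cells, and 5.56% of all bins and 13 of 107 flank bins (12.1%) were. Positive in at most 20% of cells were 46 of 72 cluster bins (63.9%), against 34.1% of all bins and 24 flank bins (22.4%). In the third chromosome 11 cluster it was 16 of 17, the exception being the bin at 55500001 to 55600000 with 7 cells. These counts move with depth and with the value that defines positive. With every cell thinned to 20000 counts, 28 cluster bins were positive in at most 20% of cells, and 18.4% of all bins were. Only 1 cluster bin was then positive in at least 80% of cells, chromosome 11 at 6200001 to 6300000, and 4.74% of all bins were. At a ratio of 2 or more, 68 cluster bins (94.4%) and 75.4% of all bins were positive in at most 20% of cells.

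The low signal did not hold for every cluster in every cell. Of 182 pairs of a cluster and a cell, 23 (12.6%) had a level of 1 or more, against 127 (69.8%) for the flanks and 77 (42.3%) for the rest of the chromosome. Below the flanks were 169 pairs (92.9%). The highest levels were those of chromosome 14 in cell 10, at 2.21 from 10 counts, and in cell 24, at 1.97 from 11, and of chromosome 1 in cell 20, at 1.88 from 16. In 3 pairs the cluster had no count: chromosome 1 and the third chromosome 11 cluster in cell 22, and chromosome 14 in cell 21. Each of these rests on few counts and carries a large counting error.

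**Figure D5:**
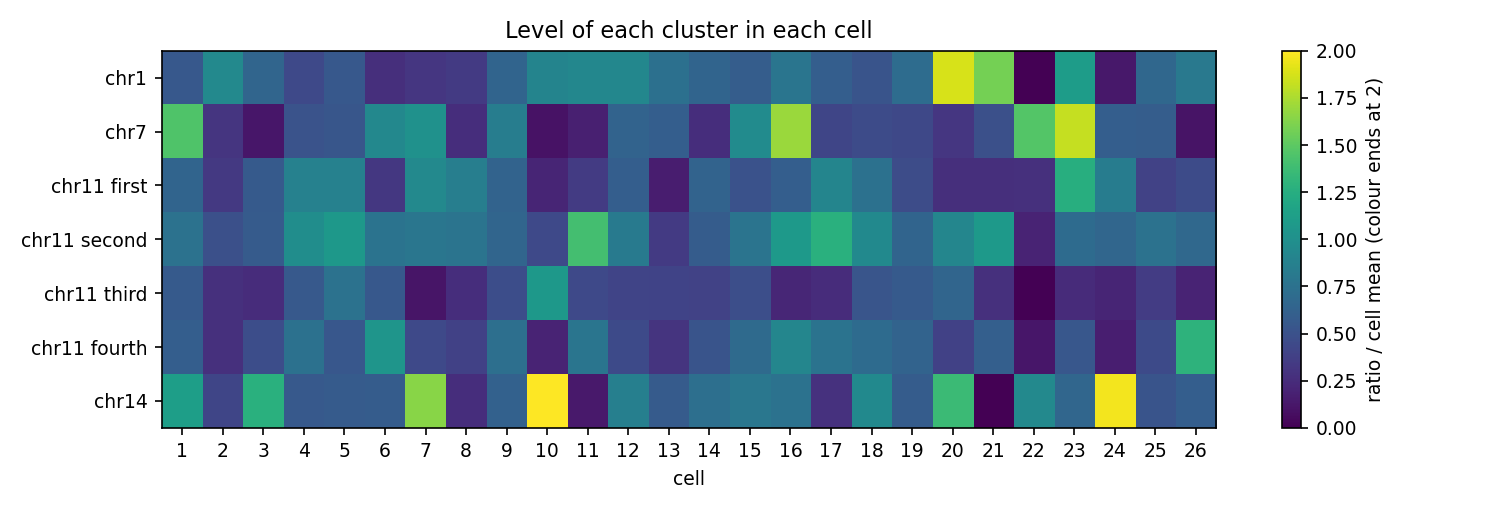
Level relative to the cell mean of each of the 7 olfactory receptor clusters (rows) in each of the 26 cells (columns), by colour, which ends at 2. Levels of 1 or more are scattered over cells and clusters, and the third chromosome 11 cluster reached 1 in 1 cell, cell 10, at 1.07.

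Counts in the clusters spread over cells more than counting error alone gives, but the clusters were also thinly counted. How PCR copies were handled is not known, so this spread cannot be read as variation between cells alone. The chi-square of the counts over cells, divided by its degrees of freedom, ran from 1.38 on chromosome 7 to 2.24 on chromosome 1, where counting alone gives about 1. The same quantity had a median of 2.59 over 1 Mb windows and ran from 2.29 to 3.93 in the flanks. The clusters held 194 to 443 counts and the windows a median of 508, and this quantity grows with counts, so a smaller spread in the clusters cannot be told apart from fewer counts.

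Edges and interiors of the clusters were also compared. The outer 2 bins at both edges (28 bins) averaged 0.712 ± 0.183 and the 44 interior bins 0.549 ± 0.202. The edges were higher by 0.163 ± 0.303, in 18 of 26 cells, which places them on neither side.

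Keratin and epidermal genes, which are also arrayed in clusters, gave a comparison with other tandem families. For these, 3 intervals were taken from textbook positions in hg19, with 36 bins: the epidermal differentiation complex on chromosome 1 at 151900001 to 153600000, the type II keratins on chromosome 12 at 52500001 to 53400000 and the type I keratins on chromosome 17 at 38800001 to 39800000. Their combined level was 1.01 ± 0.260, and the olfactory receptor clusters were lower by a difference of -0.398 ± 0.270, in 24 of 26 cells. Which genes lie in the keratin and epidermal intervals was not determined, and some may be active in blood cells. The keratin clusters lay in brighter surroundings, with flanks at 2.25 ± 0.520, and their own step was -1.24 ± 0.414, deeper than that of the olfactory receptor clusters in 24 cells. Relative to the rest of the chromosome the keratin clusters were at -0.206 ± 0.227 together, but they differed among themselves. The type II keratins were at 0.250 ± 0.448 (higher in 20 cells), the epidermal differentiation complex at -0.260 ± 0.273 (lower in 22) and the type I keratins at -0.523 ± 0.407 (lower in 22). On this measure the difference between the families, -0.176 ± 0.283, was negative in 20 cells and placed on neither side.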

How the data were processed

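The values come from DamID in 26 single KBM7 cells of clone 5-8. Per the labels' protocols, methylated DNA was cut with DpnI and amplified with 21 extension steps. Cutadapt, Bowtie2 2.1.0 and hg19 are named in the submitters' processing notes. The deposited values are a linear ratio of observed over expected signal for each of 30376 bins of 100 kb and each cell, of which 26584 have a value. The counting of reads, the masking of bins and the making of the expectation: not given in the sources used here.

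Each ratio was divided by the mean of its cell. Whole counts, the smallest possible per bin, and a relative expectation per bin were recovered from the ratios, all within 0.001 of a whole number. Flanks leave out bins of any cluster, and the rest of a chromosome leaves out clusters and flanks. Windows of 1 Mb with at least 5 bins gave the genome background. A side needs 80% of the cells. The bins named one by one were the highest and lowest of each cluster with an expectation of at least 0.5 times the median, those of the globin gap, and others chosen after their values were seen. Alternatives covered filters on bins, flank width, cluster edges, capping at the 99th percentile, a log2 scale with 0.1 added, thinning to 20000 counts, the value that defines positive, and leaving out cells. The members, lists and rules were chosen with earlier results of these data known. The scripts were tested on simulated data. Tools were scipy 1.17.1, numpy 2.4.6, matplotlib 3.10.9 and pandas 2.3.3 under Python 3.11.15.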

Additional observations from a re-analysis of the deposited data

How the results depend on the processing

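Of 217 recomputed values, 205 met the criterion for their kind. It asked for means within 1 SD between cells, differences on a log2 scale on the same side, or counts within 1.5 times. The SD between cells is wide for single clusters, so a mean can meet the criterion and still lose its call. Of 193 recomputed calls (lower, higher or neither), 19 changed. All 176 recomputed differences were negative. The combined level and both combined differences kept their side in all 53 recomputations: clusters minus flanks ran from -0.919 to -0.595 and was -0.98 on a log2 scale, and clusters minus the rest ran from -0.432 to -0.326 and was -0.69 on that scale. Single clusters were less stable, and chromosome 7 changed side in 6 of 11 alternatives against its flanks and in 6 of 9 against the rest. On a log2 scale chromosome 7 minus the rest was -0.89 (now lower, 24 cells), the first chromosome 11 cluster minus the rest -0.44, the second minus its flanks -0.42 and chromosome 14 minus its flanks -0.47 (these lost their side). The third minus flanks of 0.5 Mb was -0.374. The share of cluster bins that were positive was 28.2% with thinned counts, 38.84% with positive at a ratio of 0.5 and 6.84% at 2, where all bins gave 41.4%, 53.97% and 14.7%. With thinned counts and with positive at 0.5, the bins positive in 80% of cells or more were 1 and 3 (all bins 4.74% and 17.6%), and those in at most 20% were 28 and 13, where all bins gave 18.4% and 7.75%. The cause was not tested. Depth limits every value of 1 cluster in 1 cell. No paired analysis was possible because the labels give 1 group only, so no replicate number links groups; the differences between regions above are themselves taken within each cell.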

Other observations

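From cell to cell, the olfactory receptor clusters did not rise and fall together in a way these counts show. Over the 21 pairs of clusters the Pearson correlation of levels across 26 cells averaged 0.0032, from -0.445 to 0.496. The 6 pairs on chromosome 11 averaged 0.126 and the 15 pairs on different chromosomes -0.0461. All clusters of a cell share a library and its depth, and each rests on few counts, so these values are a description. The combined cluster level and the flank level of the same cells had a Pearson correlation of 0.265 and a Spearman correlation of 0.0626, and the Pearson value was -0.0078 without cells 10 and 22, so it rests on those cells. With the log2 total count of the cell the cluster level had a Pearson correlation of 0.0299.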
